A study of Mus musculus with 16 samples.

Results

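The genes described here are the antioxidant and glutathione enzymes of the mouse adrenal gland. They are the protein-coding genes whose symbols belong to the glutathione S-transferases of the alpha, kappa, mu, omega, pi, theta and zeta classes, the microsomal glutathione transferases, the glutathione peroxidases, the peroxiredoxins, the superoxide dismutases and the thioredoxin reductases, together with Cat, Gsr, Gss, Gclc, Gclm, Nqo1, Hmox1, Srxn1, Txn1 and Txn2. This rule took 56 of 54838 genes, by name and not by any measured value, and 25 of the 56 encode glutathione transferases. RNA was sequenced from adrenal glands of mice aged 4 weeks, with 4 mice in each of 4 groups: female control, female Rspo1 GOF, male control and male Rspo1 GOF. GOF stands for gain of function of Rspo1, a secreted protein that strengthens WNT signalling. All mice were of a mixed genetic background. The promoter, allele or Cre line behind the gain of function, and the genotype of the controls beyond that word, are not given in the sources used here. Each library came from another mouse, and the adjusted p-values below measure the spread between these mice.

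Glutathione is a small thiol peptide that cells keep at high concentration in its reduced form. Glutathione transferases join it to electrophiles, glutathione peroxidases use it to reduce hydrogen peroxide and lipid peroxides, and glutathione reductase restores it with NADPH. Peroxiredoxins do parallel work with thioredoxin, superoxide dismutases turn superoxide into hydrogen peroxide, and catalase breaks hydrogen peroxide down. The adrenal cortex makes steroids with cytochrome P450 enzymes that can leak electrons to oxygen, so it is a tissue in which these enzymes are prominent. In the same gland the X-zone is an inner cortical layer of young mice, which persists longer in females, and the medulla is made of catecholamine-secreting cells.

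Many of these genes are known targets of the transcription factor NRF2, which binds the antioxidant response element, so the members' promoters were searched for the core of that element. RefSeq promoter entries, on mouse build GRCm38.p6, were matched for 48 of the 56 genes, each entry spanning 250 bases before to 50 bases after a start site. The core searched was TGACNNNGC, read on either strand (GCNNNGTCA on the other). It was found in 9 of the 48 genes, or 18.8%, against 14.0% of 27025 genes in the same table. The 9 matches are shown because they include Gsta3 and Mgst1, which have large differences below; each is printed with 10 bases on either side, on the strand of its gene, with the matched letters in capitals.
Gsta3, chr1:21240454-21240482, plus strand: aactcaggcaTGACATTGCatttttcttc
Mgst1, chr6:138140461-138140489, plus strand: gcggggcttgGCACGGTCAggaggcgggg
Gstm5, chr3:107895802-107895830, plus strand: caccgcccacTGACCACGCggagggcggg
Gstm7, chr3:107931725-107931753, minus strand: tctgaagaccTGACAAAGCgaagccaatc
Prdx1, chr4:116685456-116685484, plus strand: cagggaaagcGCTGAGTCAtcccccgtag
Sod1, chr16:90220696-90220724, plus strand: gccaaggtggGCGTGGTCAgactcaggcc
Srxn1, chr2:152105542-152105570, plus strand: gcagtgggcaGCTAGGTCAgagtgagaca
Txnrd1, chr10:82859104-82859132, plus strand: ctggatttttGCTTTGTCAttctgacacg
Gclm, chr3:122245413-122245441, plus strand: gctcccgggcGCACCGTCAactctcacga

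The half-site of the steroidogenic factor SF1, CAAGGTCA (TGACCTTG on the other strand), was in 0 of the 48 genes and in 1.76% of all genes in the table. The TCF/LEF core CTTTGAT, which reads ATCAAAG on the other strand and is made of the letters bound by the factors at the end of the WNT pathway, was in 0 of 48 and in 4.29% of all. Read on the other strand, the SF1 half-site starts with the same letters TGAC as the element core, so those searches can overlap. Gstm1 and Gstm2 are the members that were higher with GOF in both sexes, and none of the 3 motifs was in their windows. They are neighbours in the mu-class cluster on chromosome 3, in which Gstm5, Gstm7, Gstm6, Gstm3, Gstm2, Gstm1 and Gstm4 lie in that order within chr3:107895821-108044894. The bases just before each gene are printed on the minus strand of the genome, the strand of both genes, so that they can be compared.
Gstm1, chr3:108017974-108018223: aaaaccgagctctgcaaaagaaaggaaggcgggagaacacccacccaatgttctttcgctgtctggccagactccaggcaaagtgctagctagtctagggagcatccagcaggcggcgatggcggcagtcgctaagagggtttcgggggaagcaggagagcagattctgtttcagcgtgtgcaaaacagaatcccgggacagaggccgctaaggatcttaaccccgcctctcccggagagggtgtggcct
Gstm2, chr3:107986454-107986670: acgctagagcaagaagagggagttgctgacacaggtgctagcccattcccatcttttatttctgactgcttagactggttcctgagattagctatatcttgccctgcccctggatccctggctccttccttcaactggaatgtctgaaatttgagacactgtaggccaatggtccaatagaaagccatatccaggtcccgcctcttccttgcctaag

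Library totals lay between 31275146 and 43003968 counts. Rspo1 itself stood between 3.20 and 48.2 CPM (counts per 1000000, on library totals scaled for composition) in the controls and between 354 and 972 CPM in the GOF libraries, so each library matched its genotype label. The 9 cortex markers summed to between 35728 and 57216 CPM, with all 4 groups overlapping. Marker sums of other cell types differed between the groups: the 2 X-zone markers summed to between 4910 and 7358 CPM in the female controls and to at most 3.25 CPM elsewhere, the 8 medulla markers to between 4724 and 11243 CPM in the controls and between 194 and 878 CPM in GOF, and the 7 adipocyte markers to between 1790 and 4592 CPM in the controls and between 368 and 918 CPM in GOF. A change in a gene here may therefore be fewer cells of a type or less RNA per cell, which cannot be told apart in whole glands. Liver markers summed to 10139.5 CPM in male control 2 and at most 77.1 CPM elsewhere, and kidney tubule markers to 1390 CPM in female control 1, 228 CPM in female control 3 and at most 4.59 CPM elsewhere; calls of the 56 genes lost without these 3 libraries are named.

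Of the 56 genes, 49 passed the filter on low counts and were tested. Gsta1, Gsta2, Gstt4, Gpx2, Gpx5, Gpx6 and Prdx6b did not, and Gpx5 and Prdx6b had no count in any library. Gsta2 and Gpx6 had counts mainly in the libraries with kidney transcripts: Gsta2 stood at 6.06 and 3.36 CPM and Gpx6 at 2.59 and 0.215 CPM in female controls 1 and 3. On the FPKM scale (fragments per kilobase and per 1000000 fragments), which corrects for gene length, the highest mean levels over the 16 libraries were those of Mgst1 (784), Gpx3 (569), Gpx4 (543), Prdx1 (489.7), Gstm1 (474), Gstm2 (371), Prdx3 (353) and Gpx1 (346). Nqo1, the quinone reductase often used as a readout of NRF2, had a mean of 2.95 FPKM.

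The summed FPKM of the transferases shifted from one enzyme to others between the groups, which the plot of each transferase's share shows. Mgst1, the membrane-bound microsomal transferase that also reduces lipid peroxides, made up 53.2% ± 4.79 (SD, n = 4) of the summed transferase FPKM in female controls, 26.6% ± 0.794 in female GOF, 24.8% ± 6.53 in male controls and 14.7% ± 2.63 in male GOF. The cytosolic mu-class pair Gstm1 and Gstm2 together made up 10.7% ± 2.07, 34.6% ± 1.65, 34.1% ± 7.03 and 58.4% ± 5.74 in the same order. The female control range for Mgst1, 47.0% to 57.6%, did not overlap any other group, nor did the male GOF range for the mu pair, 52.2% to 65.6%. The sum itself was 3029 ± 178 FPKM in female controls, 2421 ± 64.2 in female GOF, 2002 ± 103 in male controls and 2611 ± 312 in male GOF.

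**Figure D1:**
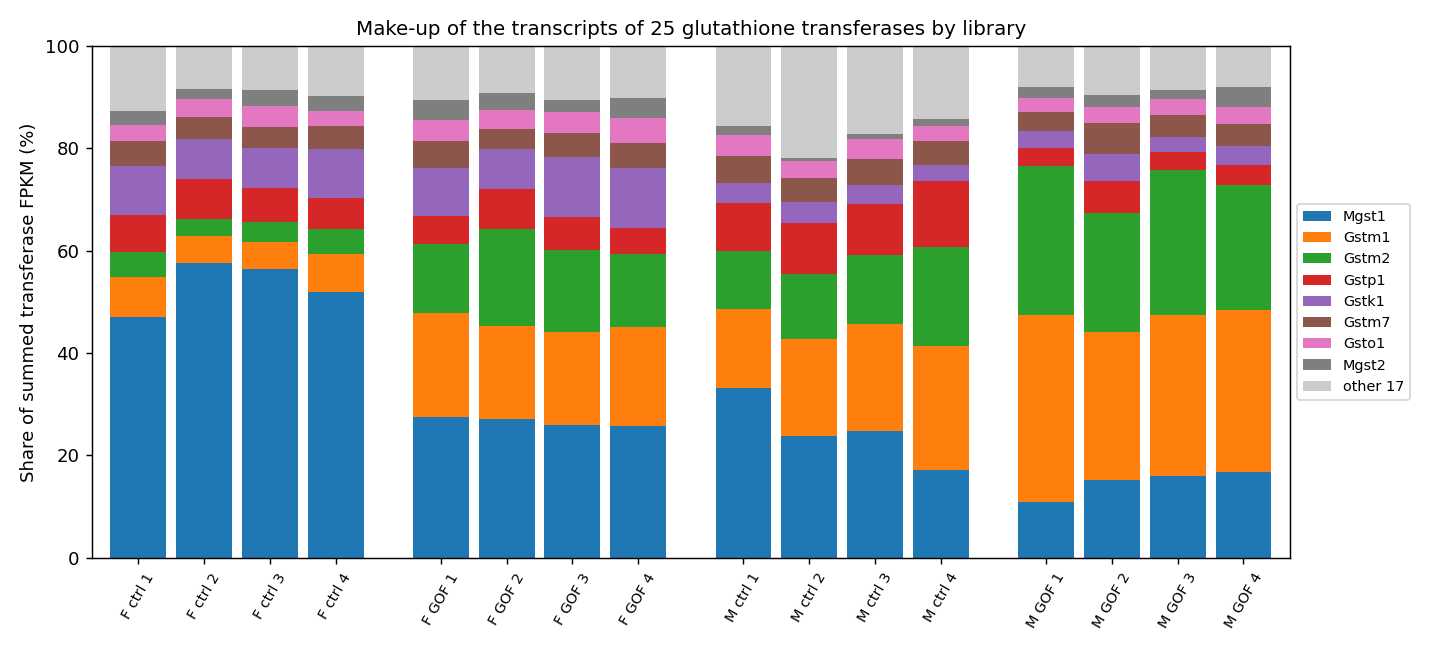
Share of the summed FPKM of the 25 glutathione transferase genes (vertical axis, percent) in each of the 16 libraries (F female, M male, ctrl control), stacked by gene. Mgst1 takes 47.0% to 57.6% in the female controls and 10.9% to 16.9% in the male GOF libraries, and Gstm1 with Gstm2 takes 8.58% to 12.8% in the former and 52.2% to 65.6% in the latter.

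GOF was compared with control in each sex. The test was the quasi-likelihood test of edgeR, its p-values were adjusted by Benjamini and Hochberg's method over all 18214 tested genes, and the threshold was 0.05. In females 26 of the 49 tested genes passed, 53.1%, where 39.6% of all tested genes did; 8 were higher in GOF (background 19%) and 18 lower (background 20.6%). In males 18 passed, 36.7%, a share near the background of 36.9%; 3 were higher (background 15.2%) and 15 lower (background 21.8%). The median log2 fold change of the 49 was -0.18 in females and -0.32 in males, beside 0.05 and 0.01 over all tested genes. The female and male comparisons share no library. Among the 49, 13 were lower with GOF in both sexes (26.5%, background 14.5%): Gsta3, Gsta4, Gstp1, Gstp2, Gstp3, Gstz1, Mgst1, Gpx3, Gpx4, Prdx6, Cat, Sod2 and Txnrd1. Of these Gstp1, Gstp3, Mgst1, Prdx6 and Txnrd1 no longer passed in both sexes without the libraries with liver or kidney transcripts. Only Gstm1 and Gstm2 were higher in both (4.08%, background 7.19%), and 0 were called in opposite directions. The 15 shared calls were 30.6% of the 49 (background 22.2%), 57.7% of the female calls and 83.3% of the male calls. Among all tested genes 4051 were called in both sexes, of 7217 female and 6725 male calls. Of those 2633 were lower in both and 1309 higher in both. Of the 49, 11 were called in females but not males and 3 in males but not females. A difference between the sexes was tested only by the interaction below. Counted without a test, all 4 GOF libraries were above all 4 controls for 6 genes and below them for 16 in females, where 37.8% of all tested genes did not overlap, and for 2 and 11 genes in males, where 33.1% did not. Without the 3 libraries named above, 14 of the 26 female calls and 14 of the 18 male calls still passed, and 24.1% and 25.7% of all tested genes were called in that fit. Gstm3 was gained in males. Those lost were Gstm4, Gstm7, Gstp1, Gstp3, Prdx1, Prdx4, Prdx6, Sod3, Srxn1, Txnrd1, Txnrd2 and Txnrd3 in females, with adjusted p between 0.0579 and 0.189, and Gstm6, Gstp3, Mgst1 and Prdx6 in males, with adjusted p between 0.0507 and 0.266 (edgeR). Animal numbers in the sample titles fall into 4 ranges, and with the range as a covariate some of the same calls were lost: in females Gstp1, Gstp3, Prdx4, Sod3, Srxn1 and Txnrd1, with edgeR adjusted p of up to 0.142, and in males Gstp3 (-2.12, adjusted p = 0.0851) and Mgst1 (-0.43, adjusted p = 0.0781). Mgst3 was gained in females in that fit (0.39, edgeR adjusted p = 0.0458), where 34.5% of all tested genes were called in females and 32.7% in males.

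**Figure D2:**
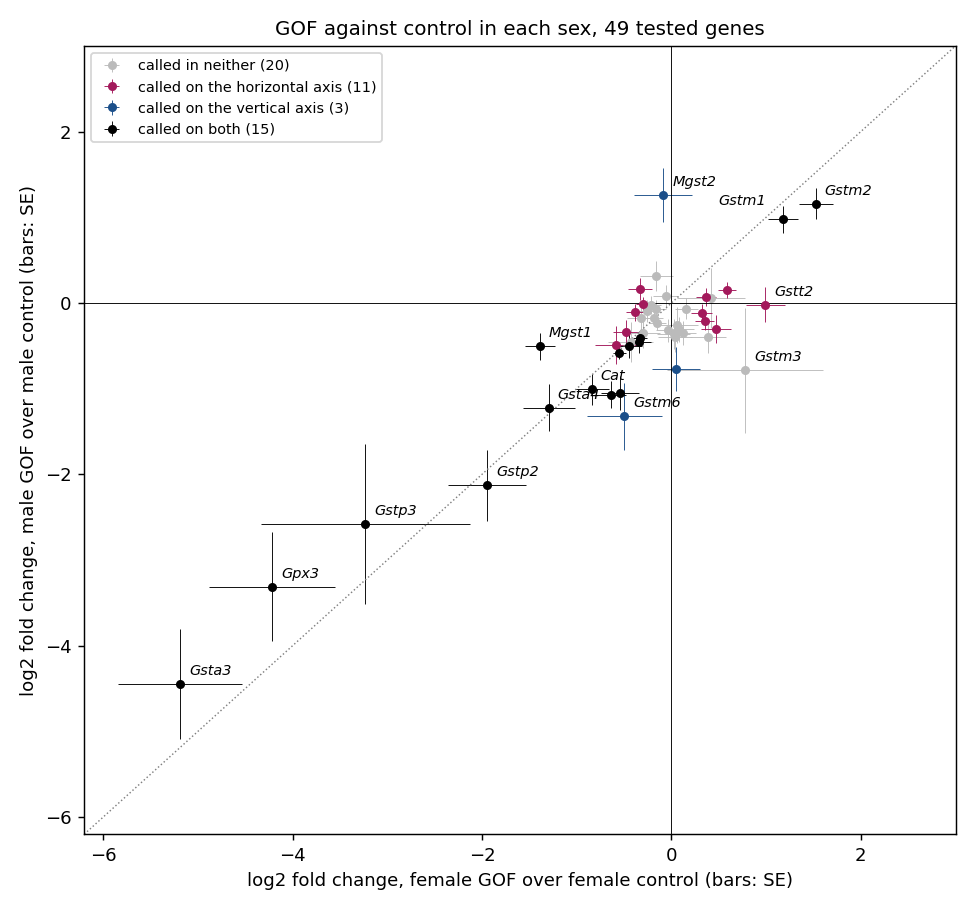
Log2 fold change of GOF against control in females (horizontal axis) and in males (vertical axis) for the 49 tested genes, with bars for 1 SE; colour marks in which sex a gene passed the adjusted threshold. Gsta3 and Gpx3 lie farthest to the lower left, at -5.19 and -4.22 in females and -4.45 and -3.31 in males, and Gstm1 and Gstm2 are the 2 genes that passed as higher in both.

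Gstm1 and Gstm2, mu-class transferases that conjugate a broad range of electrophiles in the cytosol, rose with GOF. Gstm1 stood at 212, 166, 157 and 190.3 CPM in female controls 1 to 4 and at 454, 383, 402 and 407 CPM in female GOF 1 to 4. In males it stood at 287, 367, 357 and 454 CPM in controls and at 974, 627, 613 and 669.9 CPM in GOF. The GOF libraries were all above the controls of their sex, and the female GOF values overlapped those of the male controls. GOF differed from control by a log2 fold change of 1.181 ± 0.16 (SE) in females (edgeR, adjusted p = 5.58e-05) and 0.98 ± 0.16 in males (adjusted p = 0.000224). Gstm2 stood at 124, 91.4, 106 and 115 CPM in female controls, 281, 366, 333 and 277 CPM in female GOF, 196, 229.6, 216 and 337 CPM in male controls and 723, 473, 508 and 481 CPM in male GOF, again without overlap within a sex. Its log2 fold change was 1.52 ± 0.18 in females (edgeR, adjusted p = 1.82e-05) and 1.16 ± 0.18 in males (adjusted p = 0.000136). No stretch of 150 bases in the transcripts of Gstm1 or Gstm2 is shared with another gene, so reads of that length can tell the pair apart.

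None of the 5 other mu-class genes passed in both sexes, where 22.2% of all tested genes did. Gstm7 fell in females (log2 fold change -0.33, edgeR adjusted p = 0.0459), a call lost in 9 of 16 fits that left out 1 library each. Gstm4 rose in females, where the groups did not overlap, by 0.36 on the log2 scale (edgeR, adjusted p = 0.0129), but without female GOF 3 its value was 0.23 with adjusted p = 0.086. Gstm6, at 0.892, 3.92, 2.13 and 2.58 CPM in male controls, fell in males by 1.32 on the log2 scale (edgeR, adjusted p = 0.0164), and without male control 2, the library with liver transcripts, the value was -0.97 with adjusted p = 0.0701. Gstm3 and Gstm5 did not pass in either sex with all libraries. Without the 3 libraries with liver or kidney transcripts Gstm3 was called higher in males, at 1.12 (edgeR, adjusted p = 0.0476), compared with -0.79 with all libraries.

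Gsta3 and Gsta4, the 2 alpha-class transferases tested of 4, fell with GOF in both sexes. Gsta3 (chr1:21240589-21265661, GRCm38), whose human counterpart isomerises steroid precursors as well as conjugating lipid peroxidation products, stood at 56.0, 93.5, 77.0 and 70.0 CPM in female controls and at 1.75, 2.63, 2.24 and 1.46 CPM in female GOF. In male controls it stood at 16.2, 120.2, 18.9 and 14.8 CPM and in male GOF at 2.33, 1.54, 2.10 and 1.78 CPM. All GOF libraries were below all controls, and the highest value of all was that of male control 2, with its liver transcripts. Its log2 fold change was -5.19 ± 0.66 in females (edgeR, adjusted p = 4.15e-05) and -4.45 ± 0.64 in males (adjusted p = 9.59e-05), and without male control 2 the male value was -3.10 (adjusted p = 4.45e-07). Gsta4, which clears lipid aldehydes, stood at 64.6, 38.8, 43.4 and 42.3 CPM in female controls against 29.0, 11.6, 17.9 and 18.7 CPM in female GOF, and at 68.2, 78.5, 48.9 and 72.2 CPM in male controls against 38.5, 31.1, 18.1 and 27.1 CPM in male GOF. Neither sex showed overlap, and the log2 fold change was -1.29 ± 0.27 in females (edgeR, adjusted p = 0.00187) and -1.22 ± 0.27 in males (adjusted p = 0.00282).

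**Figure D3:**
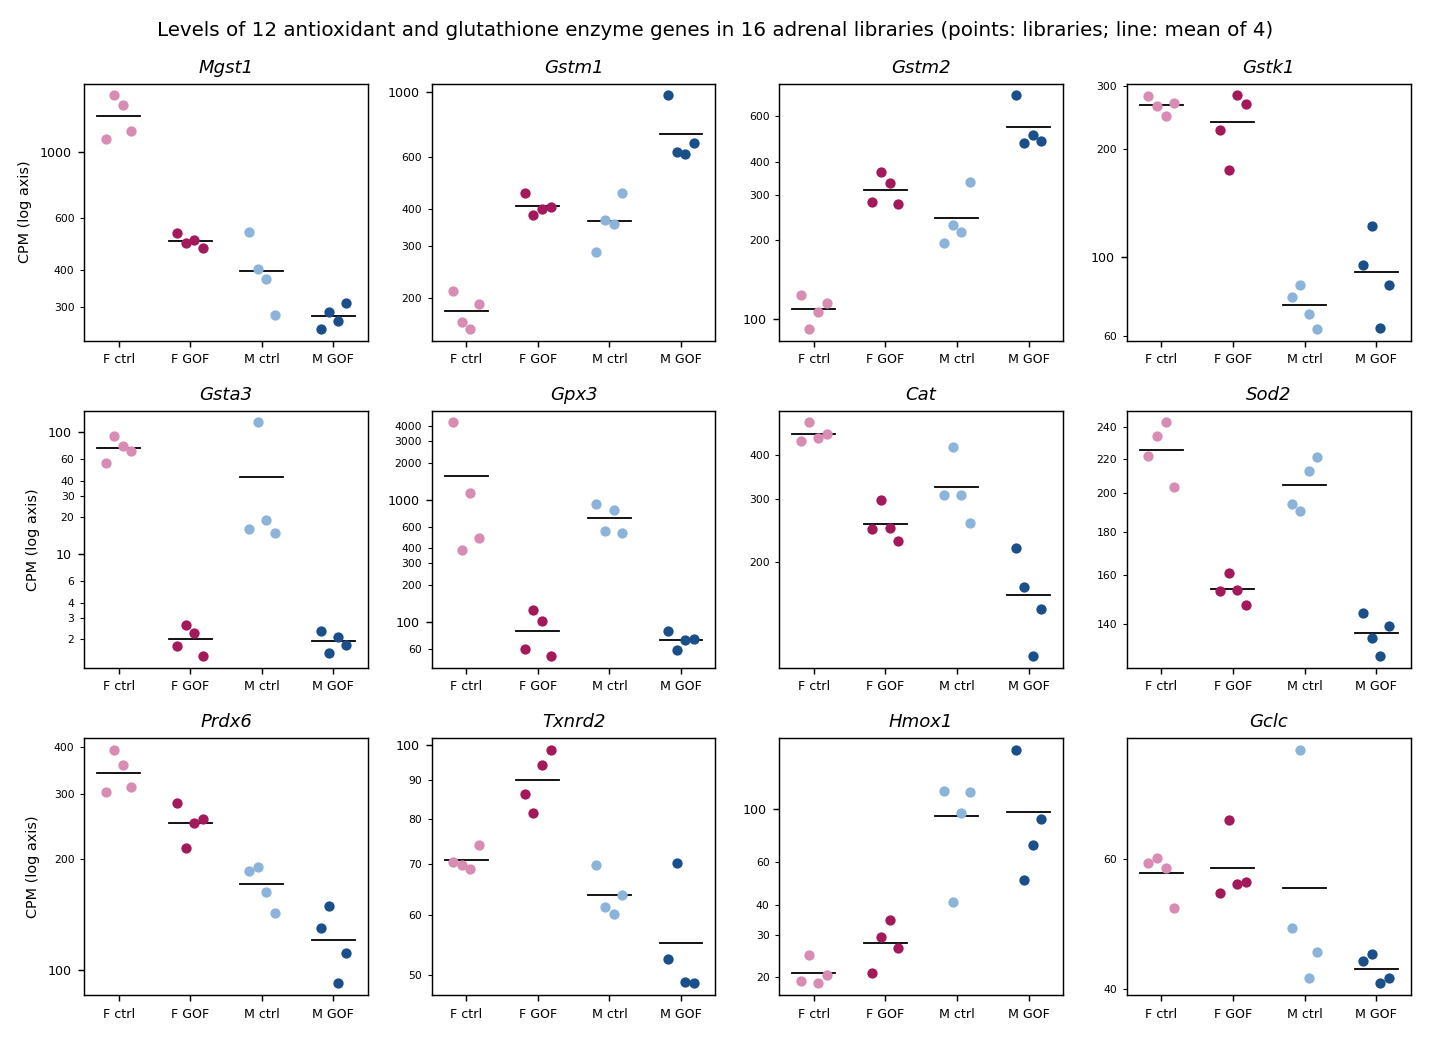
CPM on log axes for 12 of the 56 genes, with a point per library and a line at the mean of the 4 libraries of a group; F and M stand for female and male and ctrl for control. Gsta3 lies between 1.46 and 2.63 CPM in all 8 GOF libraries, Gstm1 and Gstm2 are highest in male GOF, and Mgst1 is highest in the female controls.

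Of the 3 microsomal transferases, Mgst1 fell with GOF in both sexes and Mgst2 rose in males. Mgst1 stood at 1108, 1550.5, 1440.3 and 1173 CPM in female controls and at 535, 495, 505 and 475 CPM in female GOF. In males it stood at 539, 403, 373 and 283 CPM in controls and at 254, 289.9, 269.5 and 311 CPM in GOF. The female groups were far apart, whereas male control 4 lay below 2 of the male GOF libraries. The log2 fold change was -1.39 ± 0.16 in females (edgeR, adjusted p = 1.5e-05) and -0.51 ± 0.16 in males (adjusted p = 0.0207); without male control 1 the male value was -0.33 with adjusted p = 0.0724. Mgst2, which conjugates leukotriene precursors, stood at 28.9, 9.51, 14.9 and 21.2 CPM in male controls and 44.7, 39.6, 26.6 and 67.6 CPM in male GOF. One male control exceeded the lowest male GOF library, and the log2 fold change was 1.26 ± 0.31 (edgeR, adjusted p = 0.00608). In females Mgst2 averaged 61.6 ± 9.81 CPM (SD, n = 4) in controls and 58.1 ± 12.3 CPM in GOF, a log2 fold change of -0.09 that did not pass. The X-zone marker sum moves with the high Mgst1 level of the female controls, 4910 to 7358 CPM there and at most 3.25 CPM elsewhere; its part in the Mgst1 values was not tested.

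The pi-class transferases were lower with GOF. Gstp1, the abundant cytosolic form, averaged 165 ± 29.2 CPM in female controls and 113 ± 20.2 CPM in female GOF, and 164 ± 27.4 CPM in male controls and 79.4 ± 24.7 CPM in male GOF (SD, n = 4 each). The log2 fold change was -1.05 ± 0.20 in males (edgeR, adjusted p = 0.000887), without overlap of the male groups, and -0.54 ± 0.20 in females (adjusted p = 0.0422), where 6 of the 16 fits without 1 library lost the call. Gstp2 fell by 1.95 on the log2 scale in females (edgeR, adjusted p = 0.00183) and by 2.13 in males (adjusted p = 0.00111), from levels of about 1 CPM. Exact stretches of 150 bases shared with Gstp2 and the pseudogene Gstp-ps make up 17.6% of those of Gstp1, and stretches shared with Gstp1 and Gstp-ps 35.7% of those of Gstp2, so reads of one could be counted for the other. Gstp3 rested on few reads, 7 counts in all 4 female GOF libraries against 64 in the female controls. Its calls were lost in 5 of the 16 fits without 1 library in females, where the log2 fold change was -3.23 (edgeR, adjusted p = 0.0303), and in 10 of 16 in males, where it was -2.58 (adjusted p = 0.0422).

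Gstz1, which also catalyses a step of tyrosine breakdown, fell in both sexes. It stood at 105, 76.4, 66.2 and 77.7 CPM in female controls and 52.0, 51.6, 51.9 and 53.1 CPM in female GOF, and at 70.2, 112, 99.2 and 66.7 CPM in male controls and 38.5, 44.6, 45.7 and 37.2 CPM in male GOF. The groups did not overlap, and the log2 fold change was -0.64 ± 0.16 in females (edgeR, adjusted p = 0.00575) and -1.07 ± 0.16 in males (adjusted p = 0.000131). Among the theta class, Gstt2 rose in females from 31.6, 18.4, 15.1 and 16 CPM to 39.4, 36.4, 39.2 and 46.5 CPM, a log2 fold change of 0.99 ± 0.21 (edgeR, adjusted p = 0.00173). In males Gstt2 averaged 34.8 ± 7.14 CPM in controls and 34.4 ± 3.76 CPM in GOF and did not pass. Gstt1 fell in males (log2 fold change -0.77, edgeR adjusted p = 0.0283), a call lost in 4 of the 16 fits without 1 library, and did not pass in females (0.05, adjusted p = 0.894) or in the interaction (-0.82, adjusted p = 0.218). Gstk1 did not pass in either sex, nor did the omega-class genes; the more abundant of these, Gsto1, averaged 89.2 ± 18.6 CPM in female controls, 85.5 ± 8.79 CPM in female GOF, 60.1 ± 6.46 CPM in male controls and 63.3 ± 5.62 CPM in male GOF.

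Among the glutathione peroxidases, Gpx3 (chr11:54902453-54910377) had the largest fall. It encodes the secreted peroxidase of plasma, which is made chiefly by kidney tubules. Gpx3 stood at 4272, 387, 1128 and 482 CPM in female controls and at 60.1, 124, 101 and 52.3 CPM in female GOF. In males it stood at 923, 557, 815 and 536 CPM in controls and at 83.2, 59.1, 70.6 and 72.4 CPM in GOF. The groups did not overlap in either sex, and the highest 2 female controls were the libraries with kidney transcripts, female controls 1 and 3. The log2 fold change was -4.22 ± 0.66 in females (edgeR, adjusted p = 0.000218) and -3.31 ± 0.64 in males (adjusted p = 0.00103). Without female control 1 edgeR gave a female value of -2.98 (adjusted p = 7.63e-05), and without the 3 libraries with liver or kidney transcripts it was -2.37 (adjusted p = 0.000156).

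The intracellular peroxidases differed less. Gpx4, which reduces phospholipid peroxides within membranes, averaged 411 ± 28.3 CPM in female controls and 326 ± 23.6 CPM in female GOF, and 423 ± 28.9 CPM in male controls and 319 ± 11.7 CPM in male GOF (SD, n = 4 each). It fell without overlap in both sexes, by 0.33 ± 0.07 on the log2 scale in females (edgeR, adjusted p = 0.00248) and by 0.41 ± 0.07 in males (adjusted p = 0.000548); 17.4% of its 150-base stretches are shared with the pseudogene Gpx4-ps2. Gpx8, a peroxidase of the endoplasmic reticulum, rose in females from 46.6, 41.1, 44.9 and 46.4 CPM to 69.6, 60, 73.5 and 65.0 CPM, a log2 fold change of 0.58 ± 0.09 (edgeR, adjusted p = 0.000242). Gpx1, the main cytosolic form, averaged between 278 and 334 CPM in the 4 groups and passed in no comparison, and neither did Gpx7.

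Peroxiredoxins moved little. Prdx6, which reduces phospholipid peroxides with glutathione, stood at 303, 394, 359 and 312 CPM in female controls and 283, 213, 249.4 and 256 CPM in female GOF, and at 186, 190.2, 163 and 143 CPM in male controls and 130.2, 149, 92.1 and 111 CPM in male GOF. The male groups overlapped in 1 library each. Its log2 fold change was -0.45 ± 0.14 in females (edgeR, adjusted p = 0.0209) and -0.50 ± 0.14 in males (adjusted p = 0.013). The female call was lost without female control 2 (-0.37, edgeR adjusted p = 0.0704) or without female control 3 (-0.43, adjusted p = 0.0513). Prdx1, a cytosolic form, fell in females by 0.30 ± 0.08 on the log2 scale (edgeR, adjusted p = 0.00828), from a mean of 548 ± 33.6 to 447 ± 33.9 CPM. Prdx4, the form of the endoplasmic reticulum, rose in females (log2 fold change 0.47, edgeR adjusted p = 0.03), and 8 of the 16 fits without 1 library lost the call. The cytosolic Prdx2, at means between 299 and 340.1 CPM in the 4 groups, the mitochondrial Prdx3, at 662 ± 62.4, 552 ± 82.5, 457 ± 84.6 and 428 ± 30.7 CPM in female controls, female GOF, male controls and male GOF, and Prdx5 did not pass in either sex.

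The 3 superoxide dismutases and catalase were all lower in female GOF (background 20.6%), and Cat and Sod2 also in male GOF (background 21.8%). The female Sod3 call was lost both without the 3 libraries with liver or kidney transcripts and with the number range. Cat (chr2:103453849-103485160), the peroxisomal catalase, stood at 439, 494, 448 and 457 CPM in female controls and 248, 299, 249.04 and 229 CPM in female GOF. In males it stood at 309, 421, 309 and 257 CPM in controls and 219.5, 169.6, 109 and 147 CPM in GOF. Neither sex had overlap, and the log2 fold change was -0.84 ± 0.18 in females (edgeR, adjusted p = 0.00197) and -1.01 ± 0.18 in males (adjusted p = 0.00053). Sod2 (chr17:13006846-13040063), the mitochondrial manganese enzyme, stood at 222, 234, 243 and 204 CPM in female controls, 153, 161, 154 and 147 CPM in female GOF, 194, 191, 213 and 221 CPM in male controls and 144, 134, 128 and 139 CPM in male GOF. The groups did not overlap within either sex, and Sod2 fell by 0.55 ± 0.07 on the log2 scale in females (edgeR, adjusted p = 2.96e-05) and by 0.58 ± 0.07 in males (adjusted p = 1.33e-05). Of its 150-base stretches, 7.90% are shared with AC166110.4 and Rps6ka2. Sod1, the cytosolic copper and zinc enzyme, fell in females from a mean of 559 ± 31.7 to 429.6 ± 35.6 CPM (log2 fold change -0.38, edgeR adjusted p = 0.00733), and the extracellular Sod3 from 430.2 ± 25.9 to 309 ± 53.5 CPM (-0.48, adjusted p = 0.0142). In males the averages were 453 ± 53.9 and 421 ± 44.9 CPM for Sod1 and 416 ± 53.7 and 329 ± 62.6 CPM for Sod3, and neither passed.

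Of the 6 genes of the thioredoxin system, 2 were higher (background 19%) and 2 lower (background 20.6%) with GOF in females, and 0 higher (background 15.2%) and 1 lower (background 21.8%) in males; the 4 female calls were among those lost without the 3 libraries with liver or kidney transcripts. Txnrd1, the cytosolic thioredoxin reductase, stood at 161, 209, 201 and 176 CPM in female controls and 122, 156, 156 and 157 CPM in female GOF, and at 154, 137, 116 and 138 CPM in male controls and 121, 85.4, 87.1 and 104 CPM in male GOF. It fell in males by 0.46 ± 0.13 on the log2 scale (edgeR, adjusted p = 0.0109) and in females by 0.34 ± 0.13 (adjusted p = 0.0454), where 6 of the 16 fits without 1 library lost the call. Txnrd2, the mitochondrial reductase, stood at 70.3, 69.7, 68.8 and 74.0 CPM in female controls and 86.2, 81.5, 94.2 and 98.7 CPM in female GOF, without overlap. It rose in females by 0.35 ± 0.10 on the log2 scale (edgeR, adjusted p = 0.0141), and was called neither without female GOF 3 (0.29, adjusted p = 0.0622) nor without female GOF 4 (0.26, adjusted p = 0.0852). In males Txnrd2 stood at 69.6, 61.5, 60.2 and 63.7 CPM in controls and 52.6, 70.2, 49 and 48.8 CPM in GOF and did not pass (log2 fold change -0.21, edgeR adjusted p = 0.124). Txnrd3, a form that also reduces glutathione, rose in females (0.32, edgeR adjusted p = 0.0319), a call lost in 10 of 16 such fits. Srxn1, the enzyme that repairs overoxidised peroxiredoxins, fell in females from a mean of 186 ± 55.6 to 124 ± 21.5 CPM with overlap (log2 fold change -0.58, edgeR adjusted p = 0.0496), and 7 of 16 such fits lost it. Txn1, the cytosolic thioredoxin, averaged between 208 and 233 CPM in the 4 groups and the mitochondrial Txn2 between 271 and 358 CPM, and both passed in no comparison.

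The 4 genes that make and recycle glutathione did not pass in the GOF comparison of either sex (background 39.6% in females and 36.9% in males). Gclc, the catalytic subunit of the rate-limiting ligase, averaged 57.4 ± 3.99 CPM in female controls and 58.3 ± 6.38 CPM in female GOF; its log2 fold change was 0.02, with an unadjusted 95% interval from -0.31 to 0.36. In males it averaged 54.8 ± 20.1 CPM in controls, which include 84.6 CPM in male control 2, and 42.6 ± 1.88 CPM in GOF (log2 fold change -0.36, interval -0.70 to -0.03, edgeR adjusted p = 0.111). Without male control 2 the male control mean was 44.9 ± 3.46 CPM (SD, n = 3) and the log2 fold change -0.08 (edgeR, adjusted p = 0.552). Its modifier subunit Gclm averaged between 68.5 and 76.4 CPM in the 4 groups, and the synthetase Gss between 30.3 and 48.6 CPM. Gsr, the reductase, averaged 73.4 ± 6.92 CPM in female controls, 66.1 ± 4.62 CPM in female GOF, 55.3 ± 2.72 CPM in male controls and 47.2 ± 5.82 CPM in male GOF. Nqo1 averaged between 3.29 and 6.15 CPM and passed in no comparison. Hmox1, which degrades heme, was not called for GOF in either sex (log2 fold change 0.42 in females and 0.06 in males).

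Marker sums of several cell types moved with these GOF differences. All 8 medulla markers were lower with GOF in each sex, with median log2 fold changes of -3.83 in females and -4.06 in males. Capsule markers were lower in 5 of 6 in females and 6 of 6 in males, and adipocyte markers in 6 of 7 and 7 of 7. Of the 4 zona glomerulosa markers, 2 were lower in females and 4 in males. Both X-zone markers were lower in each sex, from sums that in male controls were at most 3.25 CPM. Of the 9 cortex markers, 2 were higher and 1 lower in each sex. Macrophage markers were higher in 1 and lower in 1 of 10 in females, and higher in 6 and lower in 1 in males. Endothelial markers were higher in 0 of 7 in females and 2 of 7 in males. Of 8 erythroid markers 3 were higher in females and 3 lower in males. All 15 liver markers were lower in males, where male control 2 carries them, and 0 were called in females, whereas the 3 kidney tubule markers tested of 12 were lower in females and 0 were called in males. The part of any of these cells in the falls of Gsta3, Gsta4, Gpx3, Cat, Sod2 and the other genes was not tested.

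Males were compared with females within each genotype. In controls 20 of the 49 genes passed, 40.8%, where 23.4% of all tested genes did; 9 were higher in males (background 13.5%) and 11 lower (background 9.89%). In controls 25.3% of all tested genes did not overlap between the sexes, and of the 49 there were 6 higher and 12 lower without overlap. In GOF 15 passed, 30.6%, a share near the background of 29.6%; 3 were higher in males (background 13.3%) and 12 lower (background 16.3%). Without overlap were 4 higher and 14 lower, beside 29.1% of all tested genes. The control and GOF comparisons share no library. Lower in males in both genotypes were Gstk1, Gsto1, Mgst1, Prdx3, Prdx6, Txnrd1 and Gsr (14.3% of the 49, background 5.62%), and higher in both were Gstm1, Gstm2 and Hmox1 (6.12%, background 6.06%). Those 10 genes were 20.4% of the 49 (background 12%), 50% of the control and 66.7% of the GOF calls. Among all tested genes 2192 were called in both genotypes, of 4267 control and 5394 GOF calls. Of the 4 ranges of animal numbers 3 held 1 sex only. The remaining range held 5 male and 2 female libraries, the latter being female control 1, with kidney transcripts, and female GOF 1. The sex difference with the range as a covariate therefore rests on those 2 female libraries. A call lost in that fit does not show that the sexes are alike. In it 6 of the 49 passed in controls and 4 in GOF, where 7.2% and 7.34% of all tested genes did. Gstk1 and Prdx6 passed in both genotypes in that fit. Without the 3 libraries with liver or kidney transcripts, a fit that called 8.7% of all tested genes in controls and 27.3% in GOF, 12 of the 20 control calls still passed and Gsta3 was gained; Gstm3, Gstm7, Gsto1, Gsto2, Prdx1, Prdx3, Sod1 and Txnrd1 did not, with edgeR adjusted p between 0.0912 and 0.225. Of the GOF calls Prdx3 was lost, at -0.37 with adjusted p = 0.0588, and Gstm3 (1.43, edgeR adjusted p = 0.00983), Gstz1 (-0.33, adjusted p = 0.0461) and Gclc (-0.46, adjusted p = 0.00254) were gained.

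Markers of other cell types also differed between the sexes. Capsule markers were higher in males in 5 of 6 in controls and 4 of 6 in GOF, macrophage markers in 7 of 10 in each genotype, and endothelial markers in 0 of 7 in controls and 6 of 7 in GOF. Both X-zone markers were lower in male than female controls. Of 7 adipocyte markers 2 were higher in male controls and 2 lower in male GOF, and of 8 erythroid markers 2 were higher and 3 lower in the same order. In controls 13 of 15 liver markers were higher and the 3 tested kidney tubule markers lower in males, and 0 of either in GOF. Medulla markers were not called in either genotype. Of 9 cortex markers 1 was higher and 1 lower in controls, and 2 higher and 4 lower in GOF. Zona glomerulosa markers were higher in 1 of 4 in controls, and higher in 1 and lower in 1 in GOF. The part of these cells in the sex differences below was not tested.

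**Figure D4:**
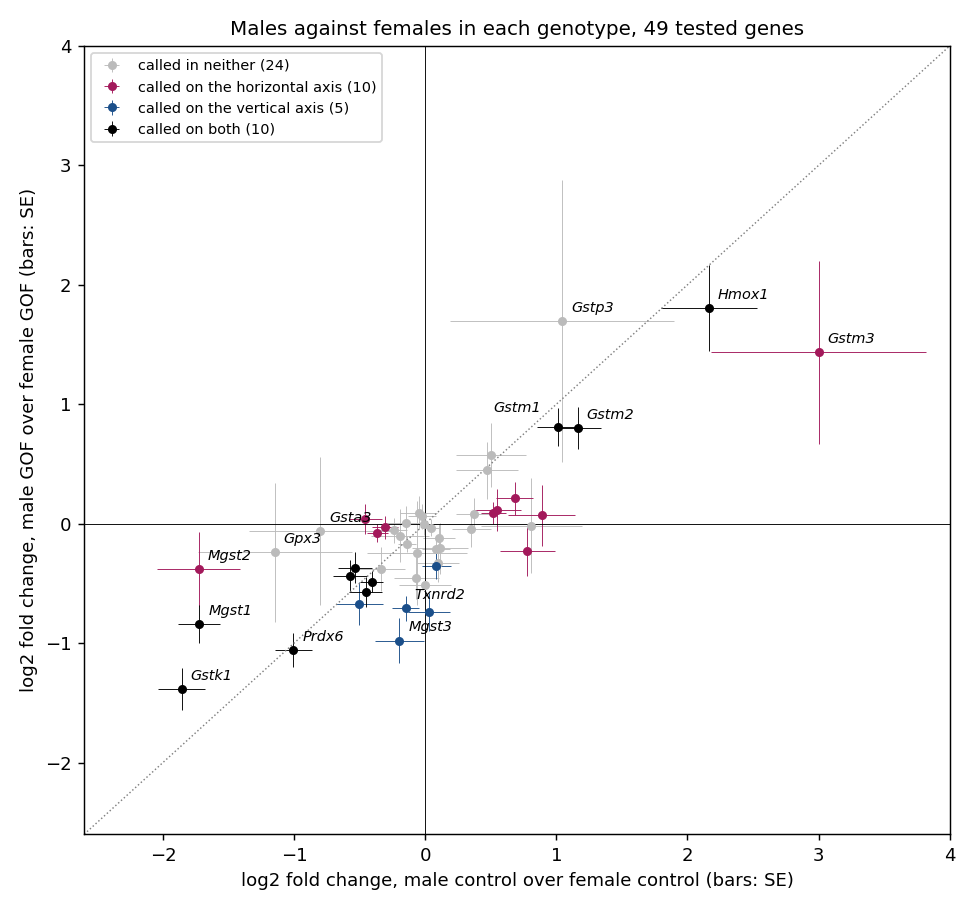
Log2 fold change of males against females in controls (horizontal axis) and in GOF (vertical axis) for the 49 tested genes, with bars for 1 SE; colour marks in which genotype a gene passed. Hmox1, at 2.16 in controls and 1.81 in GOF, lies at the upper right, and Gstk1, at -1.86 and -1.38, and Mgst1, at -1.72 and -0.84, at the lower left.

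Gstk1 (chr6:42245935-42250447), a transferase of mitochondria and peroxisomes, was lower in males in both genotypes. It stood at 280.3, 263, 248 and 269 CPM in female controls, 225, 175, 282 and 267 CPM in female GOF, 77.2, 83.5, 69.1 and 62.9 CPM in male controls and 95.2, 122, 63.3 and 83.4 CPM in male GOF. Every female library was above every male library. The log2 fold change of males against females was -1.86 ± 0.18 in controls (edgeR, adjusted p = 6.34e-06) and -1.38 ± 0.18 in GOF (adjusted p = 6.21e-05), and with the number range as a covariate -1.78 (adjusted p = 0.000264) and -1.16 (adjusted p = 0.00669).

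Mgst1, at the levels given above, was lower in males without overlap in both genotypes. Its log2 fold change was -1.72 ± 0.16 in controls (edgeR, adjusted p = 4.62e-06) and -0.84 ± 0.16 in GOF (adjusted p = 0.00115); with the number range the latter was -0.68 (adjusted p = 0.108). Prdx6 was lower in males by 1.005 ± 0.14 in controls (edgeR, adjusted p = 0.000193) and 1.06 ± 0.14 in GOF (adjusted p = 9.81e-05). Mgst2 was lower in male than female controls, without overlap (-1.73 ± 0.32, edgeR adjusted p = 0.00152), and did not pass in GOF (-0.38, adjusted p = 0.381). Gsr, the glutathione reductase, was lower in males by 0.41 in controls (edgeR, adjusted p = 0.00494) and 0.49 in GOF (adjusted p = 0.00104). With the number range neither Gsr call held, at -0.27 (edgeR, adjusted p = 0.157) and -0.28 (adjusted p = 0.16). Gclc did not pass with all libraries, but without male control 2 it was lower in males in both genotypes, at -0.36 in controls (edgeR, adjusted p = 0.014) and -0.46 in GOF (adjusted p = 0.000984). The control value did not pass without all 3 libraries (-0.32, edgeR adjusted p = 0.11), and with the number range neither did, at 0.02 (adjusted p = 0.975) and -0.33 (adjusted p = 0.524). Gsta3 did not pass between male and female controls (-0.80, edgeR adjusted p = 0.303), but without male control 2 it was -2.15 with adjusted p = 7.91e-06, the 3 other male controls averaging 16.6 ± 2.06 CPM against 74.1 ± 15.6 CPM in the 4 female controls. In GOF, where Gsta3 averaged 2.02 ± 0.520 CPM in females and 1.94 ± 0.348 CPM in males, the log2 difference was -0.06.

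Gstm1 and Gstm2 were the transferases higher in males in both genotypes. Gstm1 differed by 1.01 ± 0.16 in controls (edgeR, adjusted p = 0.000416) and 0.81 ± 0.16 in GOF (adjusted p = 0.00144), and Gstm2 by 1.16 ± 0.18 (adjusted p = 0.000344) and 0.80 ± 0.18 (adjusted p = 0.00328). With the number range as a covariate Gstm1 was at 0.82 (edgeR, adjusted p = 0.0525) and 0.63 (adjusted p = 0.137), and Gstm2 at 1.12 (adjusted p = 0.0249) and 0.69 (adjusted p = 0.162). Gstm5 was higher in male than female controls (0.68 ± 0.14, edgeR adjusted p = 0.00288), at 27.4, 30.9, 30.4 and 28.3 CPM against 23.7, 17.7, 17.5 and 14.1 CPM, and with the number range it was 0.48 (adjusted p = 0.0814). Gstm3, near the limit of detection, was called higher in male controls (3.0, edgeR adjusted p = 0.0167) through 5.88 CPM in male control 2, and without that library the value was 1.09 with adjusted p = 0.119. Gstt2 was higher in male controls by 0.78 (edgeR, adjusted p = 0.0148), a call lost without female control 3 (0.66, adjusted p = 0.0538) and with the number range (0.50, adjusted p = 0.141).

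Hmox1 stood at 19.2, 24.8, 18.9 and 20.4 CPM in female controls, 20.9, 29.4, 34.4 and 26.6 CPM in female GOF, 118, 41.2, 96.4 and 117 CPM in male controls and 176, 50.9, 70.8 and 91.0 CPM in male GOF. Every male library was above every female library, with a wide spread among the males. The log2 fold change was 2.16 ± 0.37 in controls (edgeR, adjusted p = 0.000888) and 1.81 ± 0.36 in GOF (adjusted p = 0.00187), and with the number range it was 2.45 (adjusted p = 0.0265) and 2.08 (adjusted p = 0.0577). Macrophages express Hmox1 strongly. The summed level of 10 macrophage markers was 234 to 384 CPM in female controls, 321 to 701 CPM in female GOF, 420 to 583.7 CPM in male controls and 630 to 1795 CPM in male GOF, and 7 of the 10 were called higher in males in each genotype. Male GOF 1 had the highest level of both the macrophage markers and Hmox1, and male control 2 the lowest of both among the male controls, whereas male GOF 2 had the lowest Hmox1 of its group with the second highest marker sum. The part of these cells in the Hmox1 difference was not tested.

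Of genes that passed between the sexes in 1 genotype only, Mgst3 and Prdx4 were lower in males in GOF, by 0.98 ± 0.19 (edgeR, adjusted p = 0.00144) and 0.74 ± 0.16 (adjusted p = 0.00285), as were Txnrd2 by 0.71 ± 0.10 (adjusted p = 0.000167) and Cat by 0.67 ± 0.18 (adjusted p = 0.0113). Cat was at -0.50 in controls (edgeR, adjusted p = 0.0539). Gpx8 was higher in male controls (0.52 ± 0.09, edgeR adjusted p = 0.00134) and Prdx1 lower (-0.36 ± 0.08, adjusted p = 0.00423). With the number range as a covariate, Mgst3 at -0.90 (edgeR, adjusted p = 0.0137) and Txnrd2 at -0.57 (adjusted p = 0.0294) still passed in GOF. Prdx4 at -0.49 (edgeR, adjusted p = 0.249) and Cat at -0.41 (adjusted p = 0.224) did not, nor in controls did Gpx8 at 0.46 (adjusted p = 0.0715) and Prdx1 at -0.30 (adjusted p = 0.12).

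The interaction of sex and genotype asks whether the GOF difference itself differs between males and females. Of the 49 genes 2 passed, 4.08%, where 4.21% of all tested genes did; 1 value was positive (background 1.59%) and 1 negative (background 2.61%). For Mgst1 the interaction was 0.89 ± 0.22 on the log2 scale (edgeR, adjusted p = 0.0374), the fall being larger in females, and for Txnrd2 it was -0.56 ± 0.15 (adjusted p = 0.042), a rise in females beside no called change in males. Both calls were lost without the 3 libraries with liver or kidney transcripts, at 0.93 (edgeR, adjusted p = 0.137) and -0.56 (adjusted p = 0.217), and with the number range, at 0.91 (adjusted p = 0.0838) and -0.48 (adjusted p = 0.111). The fit without the 3 libraries, in which 0.924% of all tested genes passed, gained Gsta3 at 2.23 (edgeR, adjusted p = 0.00478) and Gstt2 at -1.26 (adjusted p = 0.0293). Leaving out 1 library at a time lost the Mgst1 call in 9 of 16 fits, with values from 0.75 to 1.06, and the Txnrd2 call in 13 of 16, with values from -0.67 to -0.48. Gsta3 was called for the interaction once male control 2 was left out, at 2.09 (edgeR, adjusted p = 0.00156), compared with 0.74 (adjusted p = 0.651) with all libraries.

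Genes that feed and regulate these enzymes were counted from lists of the pathway. The background for GOF calls, given above, is 39.6% of all tested genes in females (19% higher, 20.6% lower) and 36.9% in males (15.2% higher, 21.8% lower). Counts without the 3 libraries with liver or kidney transcripts, an alternative chosen for these lists after seeing the data, are given beside the others; in that fit 24.1% of all tested genes were called in females and 25.7% in males. Of 21 genes of glutathione turnover and transport, 3 were higher and 10 lower with GOF in females, 61.9% called, and 1 higher and 7 lower in males, 38.1%, near the background. Without the 3 libraries 10 passed in females, 47.6%, with Abcc1, Ggt1 and Glrx2 lost. In males 8 passed, 38.1%, with Abcc1 and Glrx3 lost and Cbs and Slc1a4 gained. Of these Ggt1, which cleaves extracellular glutathione and is abundant in kidney tubules, had a female log2 fold change of -6.97 (edgeR, adjusted p = 0.00635), from control values between 0 and 31.9 CPM, and 1.956 (adjusted p = 0.312) without those libraries. Cth, which makes the cysteine that limits glutathione synthesis, averaged 71.5 ± 8.37 CPM in female controls, 11.8 ± 2.48 CPM in female GOF, 19.3 ± 6.09 CPM in male controls and 21.02 ± 1.62 CPM in male GOF (SD, n = 4 each). It fell in females (log2 fold change -2.6 ± 0.20, edgeR adjusted p = 6.82e-07), did not pass in males (0.12), and the interaction was 2.72 ± 0.27 (adjusted p = 0.000145). Ggt5, a surface enzyme that cleaves glutathione conjugates, averaged 15.9 ± 4.54 CPM in female controls, 58.2 ± 17.97 CPM in female GOF, 35.4 ± 10.4 CPM in male controls and 140.0 ± 22 CPM in male GOF, and rose in both sexes. Its log2 fold changes were 1.87 ± 0.26 (edgeR, adjusted p = 8.13e-05) and 1.98 ± 0.26 (adjusted p = 3.93e-05). The glutamine transporter Slc1a5 fell by 1.83 on the log2 scale in females (edgeR, adjusted p = 8.7e-06) and by 2.82 in males (adjusted p = 3.42e-07).

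Of 13 genes that supply NADPH or move carbon towards it, 2 were higher and 6 lower with GOF in females, 61.5% called, and 3 higher and 2 lower in males, 38.5%; without the 3 libraries 7 passed in females, 53.8%, with Taldo1 lost, and 3 in males, 23.1%, with Me1 and Mthfd2 lost. In the interaction 4 passed, 30.8% beside a background of 4.21%, all with a positive value (background 1.59%): Idh1 and Aldh1l1 fell in females and did not pass in males, Pgd fell further in females than in males, and Me1 was lower in females and higher in males. Me1, the cytosolic malic enzyme, fell from 2248 ± 101 to 1026 ± 63.2 CPM in females (log2 fold change -1.13 ± 0.13, edgeR adjusted p = 1.51e-05) and was higher in male GOF, 2644 ± 513 CPM against 2071 ± 290.5 CPM (0.35 ± 0.13, adjusted p = 0.0436). The interaction was 1.48 ± 0.18 for Me1 (edgeR, adjusted p = 0.000605), 0.82 ± 0.19 for Idh1, the cytosolic isocitrate dehydrogenase (adjusted p = 0.0273), 0.55 ± 0.13 for Pgd of the pentose phosphate pathway (adjusted p = 0.0298) and 0.71 ± 0.16 for Aldh1l1 of folate metabolism (adjusted p = 0.0265). Without the 3 libraries only the Me1 interaction still passed, at 1.38 (edgeR, adjusted p = 0.0101), whereas Idh1 was at 0.74 (adjusted p = 0.139), Pgd at 0.40 (adjusted p = 0.221) and Aldh1l1 at 0.72 (adjusted p = 0.128). Me1 in males was then at 0.27 (edgeR, adjusted p = 0.193). With the number range Idh1 (0.80, edgeR adjusted p = 0.0856) and Pgd (0.56, adjusted p = 0.0617) did not pass the interaction, nor Me1 in males (0.36, adjusted p = 0.078). Tkt, another pentose phosphate gene, fell by 0.98 on the log2 scale in females (edgeR, adjusted p = 0.000358) and by 1.02 in males (adjusted p = 0.000234). Nnt, the mitochondrial transhydrogenase whose loss in people impairs adrenal steroid output, was low, with a higher mean in GOF than in controls of each sex. It averaged 0.936 ± 0.134 CPM in female controls, 2.27 ± 0.593 CPM in female GOF, 0.723 ± 0.153 CPM in male controls and 1.54 ± 0.347 CPM in male GOF.

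Of 20 genes of the NRF2 axis, 1 was higher and 4 lower with GOF in females and 0 higher and 5 lower in males, 25% called in each sex and below the background; without the 3 libraries 2 passed in females, 10%, with Blvrb, Nfe2l1 and Nfe2l2 lost, and 1 in males, 5%, with Bach1, Blvrb, Nfe2l1 and Trim16 lost. Nfe2l2, which encodes NRF2, was at 115 ± 6.63 CPM in female controls and 139.7 ± 4.85 CPM in female GOF (log2 fold change 0.28 ± 0.08, edgeR adjusted p = 0.0103; 0.26 with adjusted p = 0.0896 without the 3 libraries), and at 113 ± 9.03 and 107 ± 11.1 CPM in males, where it did not pass. Its inhibitor Keap1 averaged between 62.3 and 71.1 CPM in the 4 groups and passed in no comparison. Of the 9 genes with the element core in their promoter entry, 7 were lower (background 20.6%) and 0 higher (background 19%) with GOF in females. In males 3 were lower (background 21.8%) and 0 higher (background 15.2%). Among all 49 tested members 18 were lower in females and 15 in males. Gclm and Gstm5, each with a core, passed in neither. Without the 3 libraries 3 of the 7 female calls still passed, those of Gstm7, Prdx1, Srxn1 and Txnrd1 being lost, and 2 of the 3 male calls, that of Mgst1 being lost. Of 20 genes of thiol repair and selenoprotein synthesis, 3 were higher and 8 lower in females, 55% called, and 4 higher and 5 lower in males, 45%. In females 4 passed without the 3 libraries, 20%, where Msrb1, Msrb2, Selenop, Selenot, Sesn2, Txndc12 and Txndc5 were lost, and in males 6, 30%, where Ccs, Pstk and Txndc5 were. Sephs2, which supplies the selenium donor for glutathione peroxidases and thioredoxin reductases, fell by 0.77 ± 0.14 on the log2 scale in females (edgeR, adjusted p = 0.000764) and by 1.04 ± 0.15 in males (adjusted p = 6.12e-05). Msrb3, a methionine sulfoxide reductase, rose by 1.27 ± 0.10 in females (edgeR, adjusted p = 1.28e-06) and by 0.54 ± 0.10 in males (adjusted p = 0.000787).

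Of 11 genes of steroid synthesis and its electron transfer, 1 was higher and 3 lower with GOF in females, 36.4% called and near the background, and 1 higher and 4 lower in males, 45.5%. In each sex 3 passed without the 3 libraries, 27.3%, with Star lost in both and Hsd3b1 in males. Cyp11a1, Fdxr and Por, which carry or use the electrons of steroid synthesis, passed in neither sex. Cyp11b2, a P450 gene of the same list, averaged 231 CPM in female controls and 26.5 CPM in female GOF. In males it averaged 250 CPM in controls and 51.2 CPM in GOF, and was among the 4 zona glomerulosa markers called lower. Cyb5a, which supports P450 enzymes with electrons, averaged 133 ± 13.4 CPM in female controls and 40.3 ± 6.05 CPM in female GOF (log2 fold change -1.73 ± 0.17, edgeR adjusted p = 4.8e-06) and fell in males too, at 141 ± 31.7 and 54.5 ± 10.1 CPM (-1.37 ± 0.17, adjusted p = 2.1e-05).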

How the data were processed

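The authors deposited, for each of 16 libraries, whole-number read counts per gene and FPKM values. Per the labels, libraries were made with a NEBNext Ultra kit from adrenal RNA whose integrity number was 7.0 or more, and were sequenced as paired reads of 150 bases. The submitters' processing notes name Bowtie2 2.2.3, TopHat2 2.0.12, HTSeq 0.6.1 and DESeq 1.18.0, with no role given; the build, annotation and strand setting of the counting are not given in the sources used here, so a gene and an antisense partner may share reads. The FPKM values were made by the authors from counts and a gene length that, for 98.0% of 34180 genes, equals the mean GENCODE M21 transcript length within 1%; symbols and coordinates were therefore taken from M21 on GRCm38.

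The counts of the 18214 genes that passed edgeR's expression filter (of 34196 with a count) were scaled with TMM factors and fitted in 1 quasi-likelihood model (edgeR 4.0.16, R 4.3.3) over the 4 groups, with 5 contrasts: GOF against control in each sex, males against females in each genotype, and the interaction. CPM uses the same factors. FPKM was used for levels between genes and as a limma 3.58.1 alternative on log2(FPKM + pseudocount); DESeq2 1.42.0, other scalings and filters, voom weights, a covariate for the range of animal numbers and left-out libraries were the others. All members may be named; values in every library are given for called members without overlap, at most 6 per direction, and for a fixed list of core enzymes. The members, pathway lists and markers were chosen with earlier results of these data known. In the 24 pairs of libraries within groups the lowest chi-square per degree of freedom was 26.8, far above the sampling noise of 1 library deposited under a pair of names. Counts of the 18214 genes were also simulated for female GOF against female control, with 100 genes changed 2-fold and 100 changed 4-fold. Of these 59% and 91% were recovered, 5.06% of calls were unchanged genes, and 0 calls were made when nothing was changed. In the data 39.6% of genes were called in that comparison, far more than were changed here. The figures hold for the simulated setting only.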

Additional observations from a re-analysis of the deposited data

Results flagged for a closer look

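In groups of 4 libraries, 189 groups of values were checked for a library that stood apart from the other 3 by Dixon's test, and 12 had one; chance gives about 1 in 20. Male control 2, the library with liver transcripts, had 120.2 CPM of Gsta3 where the other male controls had 14.8 to 18.9 CPM, 5.88 CPM of Gstm3 where they had 0.246 to 0.707 CPM, and 84.6 CPM of Gclc where they had 41.4 to 48.3 CPM. Female control 1, with kidney transcripts, had 67.5 CPM of Mgst3 (others 51.6 to 53.6 CPM) and 293 CPM of Prdx5 (others 195 to 199 CPM). Male GOF 1, which had the highest sum of macrophage markers, had 974 CPM of Gstm1 (others 613 to 669.9 CPM), 723 CPM of Gstm2 (others 473 to 508 CPM) and 8.0 CPM of Gstt3 (others 5.14 to 5.26 CPM). Male control 1 had 86.3 CPM of Gstm7 (others 77.4 to 78.8 CPM) and 583.7 CPM of Prdx3 (others 405 to 426 CPM). Female GOF 1 was low for Txnrd1, at 122 CPM (others 156 to 157 CPM), and female GOF 2 high for Gclc, at 67.8 CPM (others 54.1 to 55.9 CPM).

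The GOF difference itself differed between the sexes for Mgst1, by 0.89 on the log2 scale, males minus females (edgeR, adjusted p = 0.0374), and for Txnrd2, by -0.56 (adjusted p = 0.042).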

How the results depend on the processing

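No paired analysis was possible because the labels give no replicate numbers: the numbers used here only name the libraries. No call made with all libraries in the main fit changed sign in the same comparison under any alternative run. Gstm3, uncalled and negative for GOF in males in the main fit, was called higher without the 3 libraries with liver or kidney transcripts (1.12, edgeR adjusted p = 0.0476). Without female control 1, female control 3 and male control 2 together, 14 of the 49 genes passed for GOF in females and 13 for sex in controls. With the range of animal numbers as a covariate 6 passed for sex in controls, 4 for sex in GOF and 0 for the interaction. Sex in that fit rests on 2 female libraries, those of the only range with both sexes. The interaction, with 2 genes called, gave 6 with DESeq2, 8 with voom sample weights, and 1 each with RLE factors, with upper-quartile factors, without the expression filter, with a minimum of 10 counts per library, and with limma on log2(FPKM + 1) without a filter. When each library was left out in turn, the number of genes called was 20 to 27 for GOF in females, 15 to 21 in males, 15 to 23 for sex in controls, 12 to 17 for sex in GOF and 0 to 3 for the interaction. For the interaction, which involves all 4 groups, a fit with only the groups compared is the same fit. Over all tested genes, calls for sex fell from 4267 to 1311 in controls and from 5394 to 1336 in GOF with the range of animal numbers, and to 1648 in controls without the 3 libraries. Calls for GOF were 4554 in females and 4872 in males without those libraries, beside 7217 and 6725 with all. The 2 alternatives for the pathway lists, without the 3 libraries and with the number range, were chosen after seeing the data. Among all calls for GOF, the share that was higher was 48.0% in females and 41.1% in males. The limma fit on log2(FPKM + 1) put it at 60.7% and 61.3%. Upper-quartile scaling put the male share at 51.2%, and moved the share higher in males from 44.9% to 55.2% for sex in GOF and the share of positive interactions from 37.9% to 62.6%. The median of all genes in males was 0.12 with a pseudocount of 0.1 on FPKM, beside 0.01. The causes were not tested. The values of Gstp3 and Gstm3 rest on few reads.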
